A study of Mus musculus and Rattus norvegicus with 28 samples.

Results

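Neonatal rat ventricular cardiomyocytes (NRVCs) treated with trichostatin A (TSA) were compared with NRVCs given DMSO, using the RNA-seq libraries of 6 of the 28 samples in the series. The libraries were chosen by their labels, as the 3 TSA libraries and the 3 DMSO controls, and libraries with the same replicate number were treated as a pair. The remaining 22 samples come from mouse cardiomyocytes around birth. Cells of both rat groups came from the left ventricles of P1 Sprague Dawley pups of both sexes. The tissue was digested with trypsin and collagenase, and a preplating step let attaching non-cardiomyocytes settle out before the suspended cells were cultured. One day after plating, the TSA group received 100 nM TSA and the controls received the solvent DMSO, and the study's methods place the harvest at 48 h. The headers of the DMSO files carry that time, and those of the TSA files carry none. The methods for TSA also describe transfection with a control siRNA or an siRNA against Mef2a, with a change of medium before the harvest. Whether the cells of these libraries received the control siRNA is not stated there. These are short-term primary cultures without any genetic change, and each library is a bulk sample of all cells in its dish. The labels do not say whether replicates came from separate litters or cultures, so the p-values below measure the spread among these libraries, which may be technical.

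Histone deacetylases (HDACs) remove acetyl groups from histones and other proteins, and TSA blocks the zinc-dependent enzymes of classes I, IIa, IIb and IV. In heart muscle, class IIa HDACs bind MEF2 transcription factors and hold their target genes down, and class I HDACs act within repressor complexes such as CoREST, NuRD and Sin3. The CoREST complex is also brought to neuronal genes by the repressor REST, which keeps those genes silent outside the nervous system. The study used TSA to release MEF2 from HDACs, so the comparison asks which transcripts move when HDAC activity is blocked in newborn heart cells.

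The libraries held an estimated 28.2 to 38.5 M aligned reads (M, 1e6 reads), worked out from the deposited coverage and FPKM of transcripts. The gene level was the FPKM, fragments scaled to transcript length and to library depth, summed over the transcripts of a gene. Markers of heart muscle were abundant in all 6 libraries: cardiac troponin T (Tnnt2) stood at 2396, 2671 and 2326 FPKM in DMSO libraries 1 to 3 and at 2931, 2443 and 2742 in TSA libraries 1 to 3. The 21 cardiomyocyte identity genes summed to 15363 to 20566 FPKM under DMSO and 13787 to 27593 under TSA. The fibroblast collagen Col1a1 was as abundant as troponin, at 2794 to 3756 FPKM under DMSO and 1846 to 2728 under TSA, so the cultures labelled as cardiomyocytes also held RNA of other cells. Pair 3 stood apart from the other pairs: its DMSO library correlated with the other DMSO libraries at a Spearman coefficient of 0.951 and 0.956 across genes and its TSA library with the other TSA libraries at 0.965, against 0.985 and 0.986 between libraries 1 and 2 of each group. The first principal component, with 38.8% of the variance, separated TSA from DMSO, and the second, with 32.2%, separated pair 3 from the rest.

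TSA moved far more genes up than down. Of the 13625 genes tested, 339, or 2.49%, were called, meaning a change of more than 1 on the log2 scale and an adjusted p below 0.05. TSA raised 259 of them (1.9%) and lowered 80 (0.587%), so 76.4% of the called genes rose (95% Wilson interval 71.6 to 80.6). All 339 moved in the same direction in every pair, and in 325 of them the 3 TSA values did not overlap the 3 DMSO values. Groups that did not overlap were common among all genes, at 27.2% of those tested. The genes that rose started low, with a median of 1.45 FPKM under DMSO and 5.74 under TSA, whereas the genes that fell started at 15.5 and ended at 5.69. The filter bears on genes low in 1 group. Of all genes tested, 219 had every DMSO library under 1 FPKM and so passed through the TSA libraries alone. Another 44 passed through the DMSO libraries alone. Among the called genes, 88 of the rises and 7 of the falls passed in these ways, so the 76.4% share rests partly on the filter. Of 165 tested genes averaging under 1 FPKM, 63 passed through the TSA libraries alone and 13 through the DMSO libraries alone. Among the 806 genes at 100 FPKM or more, 4 rose and 7 fell. Changes are log2(FPKM + 1) differences, which understate the change of genes near 0. The count rested on 3 pairs: the calls numbered 27 without pair 1, 0 without pair 2 (2130 genes at an unadjusted p under 0.05) and 551 without pair 3. Without pairing, limma called 43 genes lower in place of 80, and without the filter on low levels it called 0 of 21275 (4268 at an unadjusted p under 0.05).

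**Figure D1:**
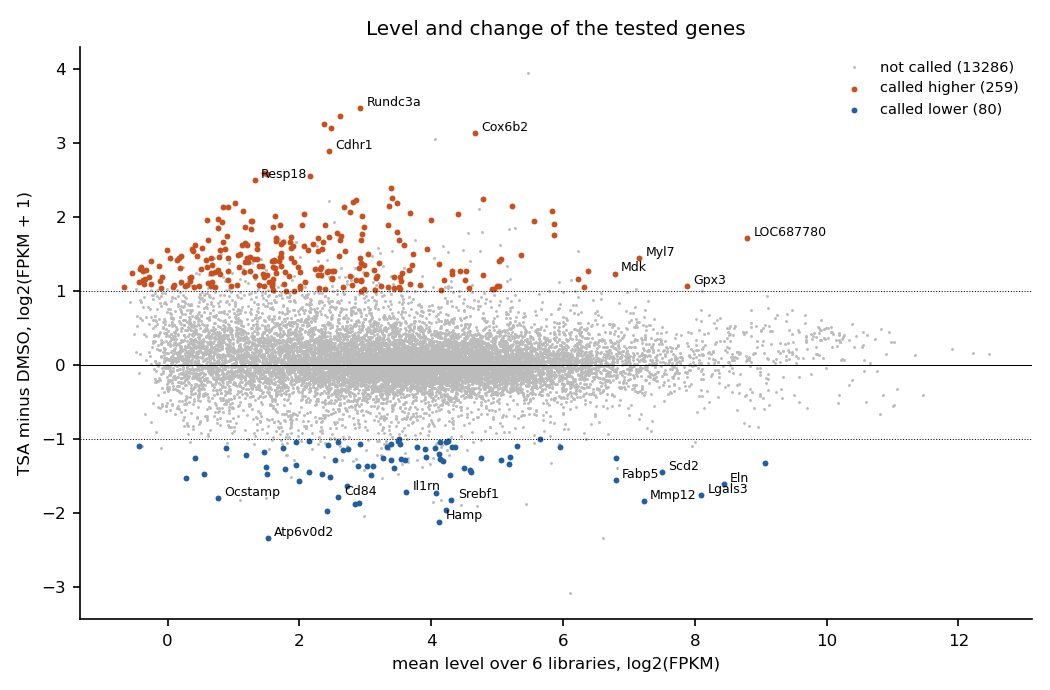
Each point is 1 of the 13625 genes tested, with its mean level over the 6 libraries as log2(FPKM) on the horizontal axis and the TSA minus DMSO difference in log2(FPKM + 1) on the vertical axis, called genes coloured and dotted lines at -1 and 1. Of the 259 genes that rose and the 80 that fell, 4 and 7 average 100 FPKM or more, and the rest lie to the left of these.

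The 10 largest called rises are given among genes with a proper symbol and groups that did not overlap. They were those of Rundc3a, Cacng7, Sez6l2, Tubb4a, Cox6b2, Cdhr1, Scg5, Fbxo2, Crmp1 and Resp18. All of these except Cox6b2 had every DMSO library under 1 FPKM, so they were tested only through their TSA libraries. Rundc3a (ENSRNOG00000020970, chr10:90342051-90351170, plus strand, rn6), which encodes a RUN domain protein of neurons, measured 0.391, 0.447 and 0.369 FPKM in the DMSO libraries and 16.0, 17.1 and 11.2 in the TSA libraries. The difference in log2(FPKM + 1) was 3.47 ± 0.15 (SE, n = 3 pairs, limma adjusted p = 0.0214), and the mean FPKM was 36.7-fold higher. Cacng7, an auxiliary subunit of AMPA receptors, went from 0.158, 0.272 and 0.277 FPKM to 12.3, 15.1 and 8.60, a log2 fold change of 3.36. Sez6l2, a membrane protein of neurons, followed with 3.25, from 0.105 to 0.246 FPKM in the controls to 8.14 to 11.8. Each of the 3 genes was near the detection floor in every DMSO library and clearly present in every TSA library. Tubb4a (chr9:9961021-9968486, plus strand), a β-tubulin of neurons and oligodendrocytes, measured 0.0559, 0.305 and 0.351 FPKM under DMSO and 7.64, 8.51 and 16.7 under TSA (3.20 ± 0.21). Cdhr1, a cadherin of photoreceptors, rose by 2.89 on the log2 scale, from at most 0.601 to at least 7.43 FPKM. Crmp1, a mediator of semaphorin signals in growing axons, rose by 2.55. Scg5 and Resp18, both proteins of the regulated secretory pathway, rose by 2.59 and 2.50. Scg5 lay at 0.0479 to 0.0983 FPKM in the controls and at 4.8 to 6.49 after TSA.

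Cox6b2 (chr1:72661211-72662434, plus strand), the testis isoform of a cytochrome c oxidase subunit, stood out among the top rises for its level. It measured 5.73, 2.31 and 6.0 FPKM under DMSO and 45.7, 46.2 and 46.5 under TSA, a log2 fold change of 3.13 ± 0.24 (limma adjusted p = 0.0222) and a 9.86-fold higher mean. The TSA libraries were nearly level with each other. Fbxo2 (chr5:164972480-164977916, plus strand), an F-box protein that targets glycoproteins for ubiquitylation, rose by 2.58, from 0.138, 0 and 0.131 FPKM to 4.46, 5.44 and 6.83. Its paralog Fbxo44 begins 576 bases away on the opposite strand (chr5:164963433-164971903) and rose by 2.39, from 2.19, 2.87 and 2.84 FPKM to 14.8, 16.8 and 23.4. No library of the controls reached the TSA range for Fbxo44, as the naming rule required for Fbxo2.

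**Figure D2:**
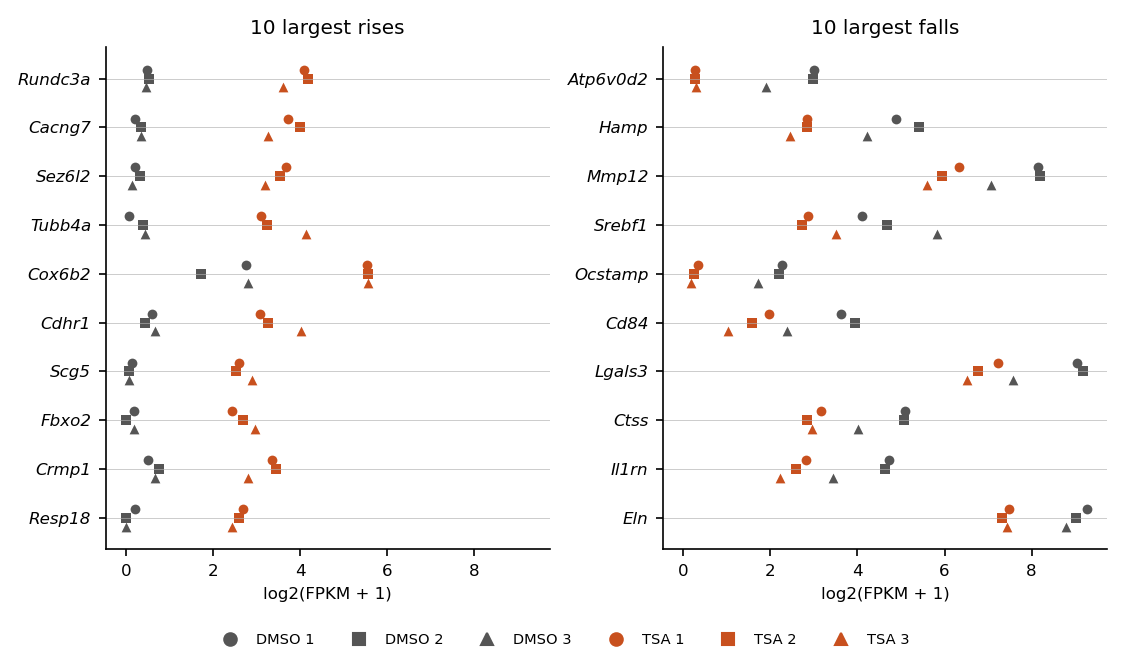
Level, as log2(FPKM + 1), of the 10 largest called rises (left) and 10 largest called falls (right) in each of the 6 libraries, with DMSO in grey, TSA in orange and a marker shape for each replicate number. The genes shown were picked among those whose TSA and DMSO values do not overlap. Cox6b2 has nearly the same level in the 3 TSA libraries.

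Genes that were almost silent in the controls formed a sizeable part of the rises. In 88 of the 259 genes every DMSO library was under 1 FPKM, in 51 under 0.5, and in 12 under 0.1. The opposite state was scarce: in 7 of the 80 genes that fell, every TSA library was under 1 FPKM. A gene that was low in the controls could be tested only if all 3 TSA libraries reached 1 FPKM, so these counts describe the called genes and not all silent genes. Among the 12, Hapln4, a link protein of brain matrix, measured 0.0324, 0.0930 and 0.0777 FPKM under DMSO and 3.48, 5.62 and 2.83 under TSA (2.18, limma adjusted p = 0.0254). Clstn3, a calsyntenin that organizes synapses, went from 0.0451, 0.0724 and 0.0945 to 3.20, 4.22 and 3.65 FPKM (2.13), and Tmem59l, a brain paralog of a Golgi protein, from 0, 0 and 0.0999 to 3.78, 3.52 and 3.32 (2.14). LOC103692976, which has no gene name, went from at most 0.0733 FPKM to at least 2.39. Gng13, a G protein γ subunit of taste and retinal cells chosen after its values were seen, was listed at 0 in every DMSO library and at 1.27, 2.76 and 1.95 FPKM after TSA. A listed 0 can be a failed estimate, since Echs1, a mitochondrial enzyme of fatty acid breakdown, was listed at 0 in TSA library 1.

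The 10 largest called falls are given among genes with a proper symbol and groups that did not overlap. They were those of Atp6v0d2, Hamp, Mmp12, Srebf1, Ocstamp, Cd84, Lgals3, Ctss, Il1rn and Eln. Srebf1 is described with the cholesterol genes below. Atp6v0d2 (chr5:33843519-33892462, minus strand), a proton pump subunit of osteoclasts and macrophages, measured 6.97, 6.87 and 2.72 FPKM under DMSO and 0.202, 0.206 and 0.215 under TSA. Its log2 fold change was -2.35 ± 0.27 (limma adjusted p = 0.0267). Ocstamp, which osteoclasts need to fuse, fell by 1.81 on the log2 scale, from 2.30 to 3.78 FPKM to 0.129 to 0.256. Dcstamp, its partner in fusion, fell by 1.10, to at most 0.164 FPKM. All of these were nearly lost from the TSA libraries. Mmp12 (chr8:5606592-5616493, plus strand), the macrophage elastase, went from 284, 294 and 133 FPKM to 79.7, 60.1 and 47.8, a change of -1.85. Hamp, the iron hormone hepcidin, went from 28.5, 41.5 and 17.6 FPKM to 6.19, 6.22 and 4.45 (-2.12). Cd84, a receptor of leukocytes, fell by 1.79, Lgals3, which encodes galectin-3, by 1.76, Ctss, the lysosomal protease cathepsin S, by 1.74 and Il1rn, the interleukin-1 receptor antagonist, by 1.73. In each of these genes DMSO library 3 was the lowest control, and it was still above every TSA library. The macrophage markers described below summed to 617 to 1335 FPKM under DMSO and to 521 to 700 under TSA, and their part in these falls was not tested. In bulk RNA, fewer cells of a type and less RNA per cell cannot be told apart. Eln (chr12:24978483-25021863, plus strand), which encodes elastin, was among the most abundant genes to fall, from 616, 518 and 441 FPKM to 176, 158 and 172 (-1.62 ± 0.12, limma adjusted p = 0.0214).

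Few abundant genes passed the fold limit. Myl7 (chr14:86143862-86147553, minus strand), the atrial myosin regulatory light chain, measured 97.1, 92.5 and 46.7 FPKM under DMSO and 227, 202 and 189 under TSA, a log2 fold change of 1.44 ± 0.19 (limma adjusted p = 0.0328). Mdk, the growth factor midkine, went from 70.7, 91.4 and 41.0 to 175, 152 and 133 FPKM (1.23), and Gpx3, a secreted glutathione peroxidase, from 145, 156 and 147 to 350, 380 and 232 (1.07). The fourth rise at this level was that of LOC687780, a locus without a gene name, from 208, 328 and 118 FPKM to 736, 773 and 499 (1.71). In all 4 genes the groups were apart. Of the 7 abundant genes that fell, Mmp12, Lgals3 and Eln are given above and Gpnmb below. Fabp5, a carrier of fatty acids, went from 179, 215 and 110 FPKM to 61.8, 53.6 and 47.6 (-1.57). Scd2, a desaturase that makes unsaturated fatty acids, went from 106, 165 and 562 FPKM to 60.1, 60.2 and 130 (-1.45, limma adjusted p = 0.0498). The value of Scd2 in TSA library 3 exceeded that in DMSO library 1, so that fall was seen within pairs and not between the groups as a whole.

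Against this background, 52 gene lists covering heart muscle, chromatin, cell cycle, metabolism, stress and the cell types of the ventricle were examined. The files held 842 of their genes and 725 were tested, of which 16 rose and 17 fell, so 306 of the 339 called genes were in none of the lists. Called members occurred in 17 lists. The median log2 fold change over all genes tested was 0.03. For every list count below, the shares over all genes tested were 1.9% called higher and 0.587% called lower. On adjusted p alone they were 3.45% and 1.17%.

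**Figure D3:**
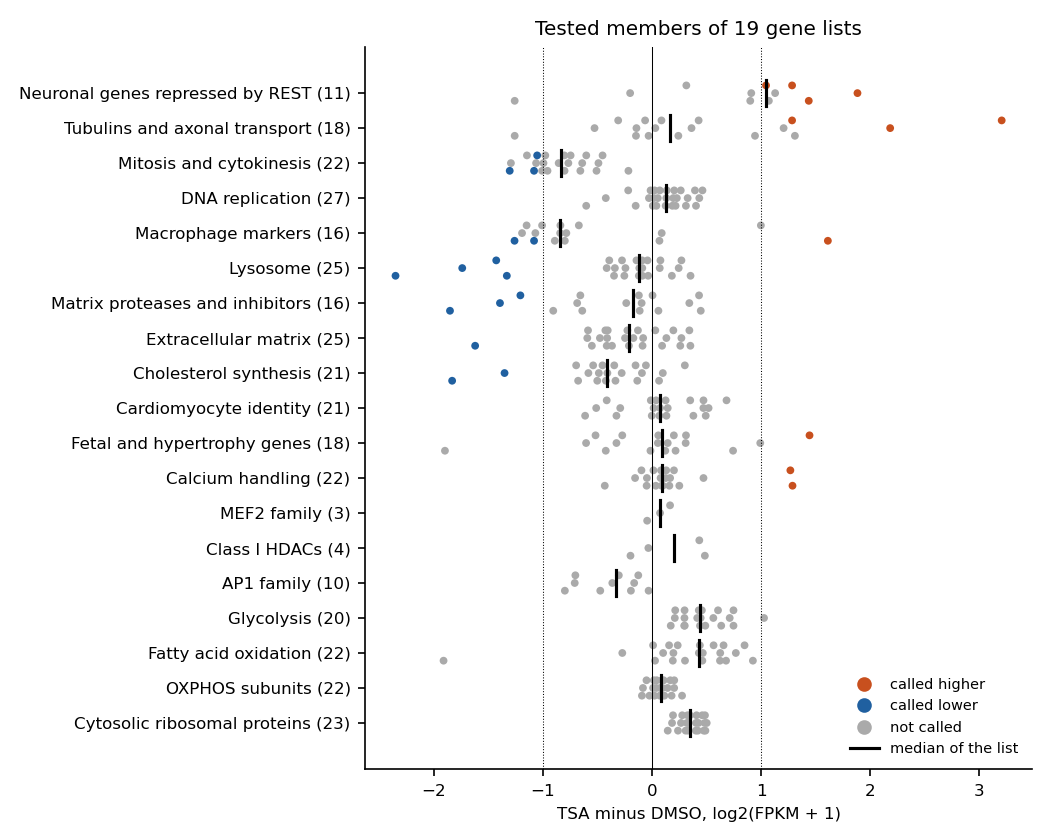
TSA minus DMSO differences in log2(FPKM + 1) of the tested members of 19 of the gene lists, with 1 point per gene, the number tested in brackets, a black bar at the list median, dotted lines at -1 and 1, and called genes coloured. The mitosis and AP1 lists lie wholly below 0, the ribosomal and glycolysis lists wholly above 0, and the medians of the heart muscle lists are near 0.

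Neuronal genes that REST silences elsewhere were mostly too low to test. Of 35 such genes in the files, 11 were tested, 4 rose and none fell, with a median of 1.05. On adjusted p alone 5 were higher, against 3.45% of all genes tested, and none was lower. For 6 of the 11 every DMSO library was under 1 FPKM, so they were tested only because TSA libraries were higher, and neither these counts nor the median is read as a result. Among the other 5, Kif1a alone was called or passed the adjusted p, and the median was 0.32. Counted over all 35, tested or not, 19 had every TSA value above every DMSO value, or 54.3%, against 9.72% of all genes in the files. That base of 32623 genes includes many at 0 in every library, which cannot count, as 21275 had any signal. Among genes tested the share was 17.1%. Kif1a (chr9:100171772-100253609, minus strand), a motor that carries synaptic vesicle precursors, was present in the controls and rose from 3.10, 3.23 and 4.86 FPKM to 12.7, 15.4 and 21.7 (1.88 ± 0.10, limma adjusted p = 0.0214). Kif5a, a kinesin of neurons, rose by 1.44, Stmn2, a microtubule regulator of growth cones, by 1.28 and Celsr3, a cadherin that guides axons, by 1.05. The groups were apart for all 4, which the filter fixed in advance for Kif5a, Stmn2 and Celsr3. The synaptic genes Syn1 and Unc13a had differences of 0.90 (limma adjusted p = 0.0621) and 0.91 (0.0440), short of the fold limit. In the other direction, Tubb3, the β-tubulin of neurons, measured 11.6, 12.1 and 31.9 FPKM under DMSO and 6.39, 8.05 and 4.95 under TSA (-1.26, limma adjusted p = 0.141). The repressor itself, Rest, had a difference of 0.02 (limma adjusted p = 0.936), whose sign changed with the scaling. Among 18 tubulin and axonal transport genes tested, Tubb4a, Stmn2 and Mapt rose. Mapt, the microtubule protein tau, went from 2.06, 2.90 and 5.61 FPKM to 14.1, 18.3 and 24.4 (2.18).

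A pair of moderately abundant neuronal genes outside the lists, chosen after their values were seen, also rose. Aplp1, a relative of the amyloid precursor protein, rose by 1.76, from 23.0, 25.7 and 29.7 FPKM to 88.8, 95.8 and 86.7. Uchl1, a deubiquitylating enzyme of neurons, rose by 1.91, from 16.8, 16.8 and 44.8 to 82.8, 93.1 and 95.6. Markers of Schwann and neuronal support cells were low in both groups: 3 of 10 were tested, none was called, and the list summed to 8.66 to 10.9 FPKM under DMSO and 11.7 to 16.1 under TSA. Whether neural cells in the dish contributed to the rises was not tested.

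Genes of heart muscle identity were not called in either direction. All 21 in the files were tested, with a median of 0.07 and a median of at most 0.18 under the 11 alternatives. Myh6, the α myosin heavy chain, measured 503, 649 and 413 FPKM under DMSO and 769, 720 and 1010 under TSA, and the difference of 0.68 missed the threshold (limma adjusted p = 0.154). Its partner Myh7, the β heavy chain, differed by -0.32 (limma adjusted p = 0.412). Of 18 fetal and hypertrophy genes, Myl7 alone was called. The natriuretic peptide gene Nppa measured 1161, 1068 and 7396 FPKM in the controls and 1182, 1111 and 10952 after TSA, so the pairs differed more than the treatments did (0.22, limma adjusted p = 0.441). Nppb, the second natriuretic peptide gene, was higher in each pair, at 145, 90.4 and 1368 against 201, 184 and 2287 FPKM, and passed the adjusted p but not the fold limit (0.74, limma adjusted p = 0.0498). Skeletal α-actin, Acta1, fell just short of the limit with 59.5, 63.2 and 389 against 110, 116 and 923 FPKM (0.99, limma adjusted p = 0.0267). For all 3 genes pair 3 was several times higher than the other pairs in both groups. Xirp2, a sarcomere protein and MEF2 target, ran the other way, from 7.19, 4.70 and 107 FPKM to 2.11, 2.34 and 8.44 (-1.90, limma adjusted p = 0.117). It is a single uncalled gene, by far highest in DMSO library 3. From a gene set analysis, the study reports that TSA reactivated its MEF2-regulated genes in NRVCs. That gene set was not examined here.

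Calcium handling and excitability showed single genes rather than a shift of the list. Of 22 calcium handling genes, 2 rose: Fkbp1b, which binds the ryanodine receptor, from 1.94, 1.85 and 3.30 FPKM to 7.49, 6.63 and 7.09 (1.29, limma adjusted p = 0.0301), and S100a1, a calcium sensor of muscle, from 61.9, 59.3 and 29.7 to 116, 124 and 110 (1.27, limma adjusted p = 0.0437). The groups were apart in both genes, and 1.9% of all genes tested rose. The list's median was 0.09, and -0.02 without pair 3. No cardiac ion channel or gap junction gene was called among 19 tested. The pacemaker channel Hcn2 differed by 1.52, from 11, 10.7 and 6.26 FPKM to 23.0, 24.8 and 38.2, without passing the adjusted p (0.0615). Kcnj3, a channel opened by acetylcholine receptors, differed by 0.87 (limma adjusted p = 0.0286).

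**Figure D4:**
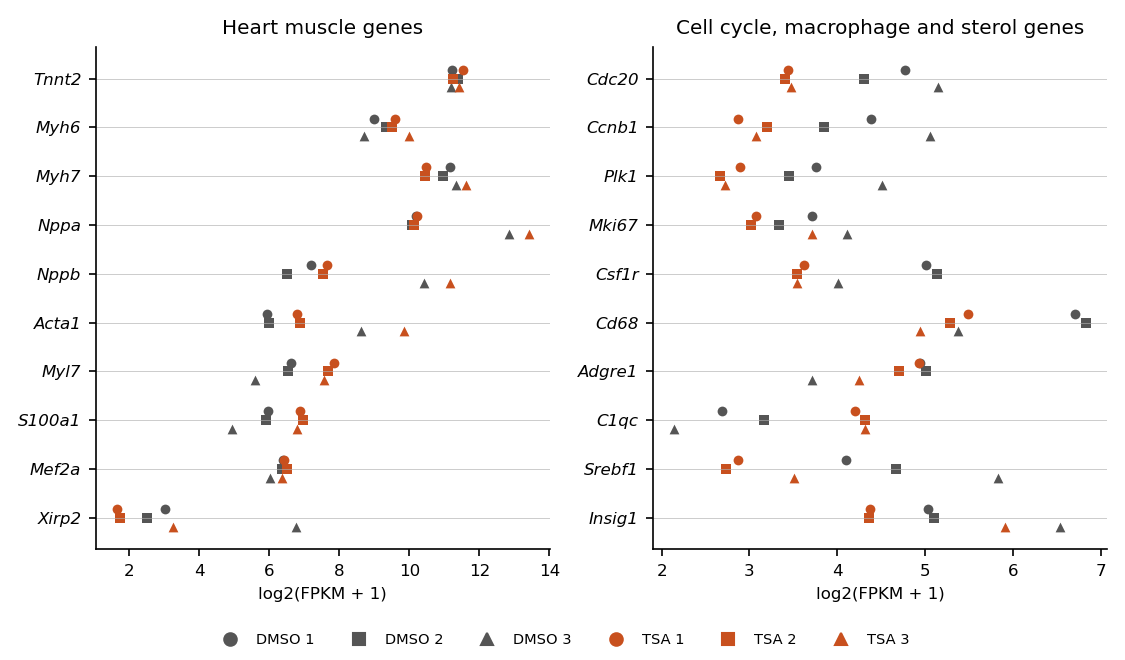
Level, as log2(FPKM + 1), of 10 heart muscle genes (left) and 10 cell cycle, macrophage and sterol genes (right) in each of the 6 libraries, with DMSO in grey, TSA in orange and a marker shape for each replicate number. Nppa, Nppb and Acta1 are highest in both libraries of replicate 3, Myl7 and S100a1 are higher in all TSA libraries than in any control, and Cdc20 is lower in all TSA libraries than in any control.

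No MEF2 factor was called. Mef2a, the most abundant, measured 83.0, 81.3 and 63.8 FPKM under DMSO and 84.6, 89.6 and 80.6 under TSA (0.17, limma adjusted p = 0.334). Mef2c and Mef2d differed by 0.07 (0.724) and -0.04 (0.816), and both signs depended on the setting. Mef2b was too low to test. Of the HDAC genes none was called. Hdac1, a class I enzyme, was higher in each pair, from 34.6, 34.0 and 38.4 to 52.6, 53 and 45.5 FPKM, with groups apart (0.48, limma adjusted p = 0.0750). Hdac7, a class IIa enzyme, differed by -0.48 (limma adjusted p = 0.0501) and the class IV enzyme Hdac11 by 0.49 (0.0937). The 21 HDAC complex partners tested and 14 acetyltransferase and bromodomain genes tested held no call, with medians of 0.02 and -0.14. The former changed sign with the scaling, to -0.06 in TPM and -0.02 with size factors. Sirt3, a mitochondrial deacetylase that does not belong to the TSA-sensitive classes, differed by 0.84 (limma adjusted p = 0.0446).

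Of 22 mitosis and cytokinesis genes 3 fell, against 0.587% of all genes tested. Of 27 DNA replication genes none was called, against 2.49% of all genes tested, a share at which a list of this size can easily hold none. The difference between the lists was not tested. All 22 mitosis and cytokinesis genes tested had negative changes, with a median of -0.83 (-1.004, -0.51 and -1.13 in pairs 1 to 3), and 12 had every TSA value below every DMSO value, against 10.1% of the genes tested. On adjusted p alone, limma gave 4 lower and 0 higher, against 1.17% and 3.45% of all genes tested. Cdc20 (chr5:137260739-137265015, minus strand), the activator of the anaphase-promoting complex, fell from 26.3, 18.8 and 34.5 FPKM to 9.87, 9.62 and 10.1 (-1.30 ± 0.17, limma adjusted p = 0.0301). Nusap1, a spindle protein, fell by 1.08 and Ube2c, a ubiquitin-conjugating enzyme of mitotic exit, by 1.05. In these 3 genes the TSA libraries were close together and the controls spread over a wider range. Ccnb1, the mitotic cyclin B1, measured 19.9, 13.4 and 32.2 against 6.31, 8.22 and 7.40 FPKM, yet its -1.38 missed the threshold (limma adjusted p = 0.0587). The same held for the kinase Plk1 (-1.14, 0.0597) and for cyclin A2, Ccna2 (-1.07, 0.0544). Mki67, which marks cycling cells, differed by -0.45 (limma adjusted p = 0.0837). Cenpa, the histone variant of centromeres, fell by 1.05 (limma adjusted p = 0.0498).

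Of the replication genes none passed the adjusted p in limma, and the median was 0.13, made of -0.10 and -0.05 in pairs 1 and 2 and 0.56 in pair 3. Pcna, the sliding clamp of replication, differed by 0.04 (limma adjusted p = 0.907), a sign that turned in TPM and without pair 3. The CDK inhibitors were not called: Cdkn1a, the gene of p21 and a classic target of HDAC inhibitors, differed by 0.40 (limma adjusted p = 0.0592), and Cdkn1c, the gene of p57, by 1.06 (0.0729). Which cells of the culture carried the mitotic transcripts was not tested.

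Macrophage markers moved in both directions, with more falls than rises. Of 18 in the files 16 were tested, 2 fell and 1 rose, against 0.587% and 1.9% of all genes tested. The median was -0.84 (-0.94, -1.26 and -0.42 in the pairs). Their summed level was 1294, 1335 and 617 FPKM in the controls and 700, 592 and 521 after TSA. Laptm5, a lysosomal protein of blood cells, fell by 1.26, from 45.3, 50.5 and 21.2 FPKM to 16.6, 15.2 and 12.5, and Itgam, the integrin CD11b, fell by 1.08. The gene model of Itgam contains that of Itgax, the integrin CD11c, which fell by 1.37, so reads of these 2 genes may have been shared. The defining receptor Csf1r measured 31.2, 34.0 and 15.1 against 11.3, 10.6 and 10.7 FPKM and was not called (-1.15, limma adjusted p = 0.0659). Cd68, a lysosomal marker, and Lyz2, lysozyme, were likewise not called, at -1.07 (0.0683) and -0.84 (0.0702). Complement C1q ran against the list. C1qc rose from 5.45, 8.01 and 3.41 FPKM to 17.4, 18.9 and 19 (1.61, limma adjusted p = 0.0324), C1qb differed by 1.00 (0.0937) and C1qa by 0.09, and the marker Adgre1 (F4/80) differed by 0.07. The last 2 turned negative without pair 3.

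Single lysosomal and matrix protease genes fell. Of 25 lysosome genes, limma called 4 lower, against 0.587% of all genes tested, and none higher (4 and 0 on adjusted p alone), with a median of -0.12 and 0.09 in pair 3. Ctsk, the collagen-cleaving cathepsin K of osteoclasts, fell from 34.7, 37.9 and 34.2 FPKM to 13.7, 14.3 and 10.2 (-1.43, limma adjusted p = 0.0222). Gpnmb, a glycoprotein of macrophages and osteoclasts, fell by 1.33, from 939, 1020 and 396 FPKM to 348, 293 and 233. The other 2 were Atp6v0d2 and Ctss. Of 16 matrix protease and inhibitor genes tested, Mmp12, Plau and Mmp9 fell, against the same 0.587% of all genes tested. Plau, the urokinase plasminogen activator, fell by 1.39 and Mmp9, a gelatinase, by 1.20. Mmp14, the membrane protease of fibroblasts, differed by -0.90 (limma adjusted p = 0.0351) and Timp2, an inhibitor of metalloproteases, by -0.64 (0.0284). Ctsk was at a similar level in all 3 controls, whereas Gpnmb, Ctss and Atp6v0d2 were lowest in DMSO library 3. The part of macrophages in these falls was not tested.

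Markers of other cell types showed isolated calls. The 14 fibroblast markers in the files summed to 6653, 7276 and 7051 FPKM under DMSO and 6192, 5887 and 3714 under TSA, with a median of -0.37 over the 13 tested and 1 call. That call was Thy1 (chr8:48382121-48386935, plus strand), a surface protein of fibroblasts and of neurons, which rose from 6.27, 7.02 and 14.7 FPKM to 48.5, 55.9 and 33.5 (2.24 ± 0.36, limma adjusted p = 0.0449). Col1a1 and Col3a1, the fibrillar collagens, differed by -0.42 and -0.55 without passing the test. Rgs5, a G protein regulator that marks pericytes, rose by 1.80, from 3.47 to 5.33 FPKM to 15.3 to 20.9, while the median of its 13-gene smooth muscle and pericyte list was -0.04. Cldn5, the endothelial tight junction claudin, rose by 1.05 at low levels, from 0.163 to 0.441 FPKM to 1.69 to 1.89. It was tested only through its TSA libraries, as every DMSO library was under 1 FPKM, and 4 of 10 alternatives kept the call. The endothelial secreted factor Egfl7 differed by 0.97 (limma adjusted p = 0.0360). Summed endothelial markers ranged from 71.0 to 89.4 FPKM under DMSO and 82.0 to 93.9 under TSA. Erythroid genes summed to 30.4, 24.5 and 5.25 FPKM and to 38.9, 53.6 and 64.4, with 3 of 9 tested and none called.

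The fall of elastin was not shared by the whole matrix. Of 25 matrix genes tested Eln alone was called, and the list's median of -0.21 came with -0.59 in pair 3 and medians within 0.004 of 0 in pairs 1 and 2. Fbln5, which guides elastin into fibers and was added after its values were seen, fell by 1.25, from 52.9, 49.7 and 52.2 FPKM to 25.8, 22.6 and 16.0. None of 20 myofibroblast and TGF-β genes was called (3 were lower on adjusted p alone), and their median was -0.29. Tagln, an actin-binding protein of smooth muscle and myofibroblasts, differed by -0.79 (limma adjusted p = 0.0267) and Acta2, smooth muscle actin, by -0.60 (0.0362).

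Few cholesterol synthesis genes passed the test, and those that did were lower. Of 21 cholesterol synthesis genes, 18 had negative changes, 2 fell, Srebf1 among them, and 4 were lower on adjusted p alone, against 1.17% of all genes tested. The median was -0.41 and similar in each pair (-0.36, -0.34 and -0.45). Srebf1 (chr10:46570996-46593009, minus strand), the transcription factor that drives fatty acid synthesis, measured 16.2, 24.5 and 55.6 FPKM under DMSO and 6.32, 5.64 and 10.4 under TSA (-1.83, limma adjusted p = 0.0275). The values of the 2 groups did not overlap, a condition for being named among the largest falls. The sterol sensor partner Insig1 and the sterol enzyme Cyp51 passed the adjusted p at -0.68 and -0.69 (0.0267 each). Scd, a second desaturase, fell by 1.64 along with Scd2.

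Differences in energy metabolism rested on pair 3. All 20 glycolysis genes had positive changes and none was called or passed the adjusted p in limma. Their median of 0.44 came from 0.11 and 0.07 in pairs 1 and 2 and 1.17 in pair 3. The summed level was 4573, 4528 and 4639 FPKM under DMSO and 4902, 4829 and 9862 under TSA. Hk2, a hexokinase, measured 10.9, 11.1 and 10.5 against 7.67, 8.68 and 69.1 FPKM, and Bnip3, a mitophagy receptor induced by low oxygen, 47.6, 41.4 and 39.8 against 48.1, 51.4 and 221. Tpi1, triosephosphate isomerase, differed by 1.03 without passing the test (limma adjusted p = 0.114). TSA library 3 alone carried these high values. Fatty acid oxidation genes had a median of 0.43 over 22 tested, with 0.00, 0.23 and 0.77 in the pairs, and Fabp3, the fatty acid carrier of heart muscle, differed by 0.92 (limma adjusted p = 0.0744). The 22 subunits of oxidative phosphorylation had a median of 0.08 that turned to -0.07 without pair 3. Cytosolic ribosomal protein genes were steadier: all 23 differences were positive, 22 without overlap (17.1% of all genes tested had TSA higher without overlap), with a median of 0.35 (0.39, 0.33 and 0.36 in the pairs, 0.28 in TPM), and none passed the test.

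**Figure D5:**
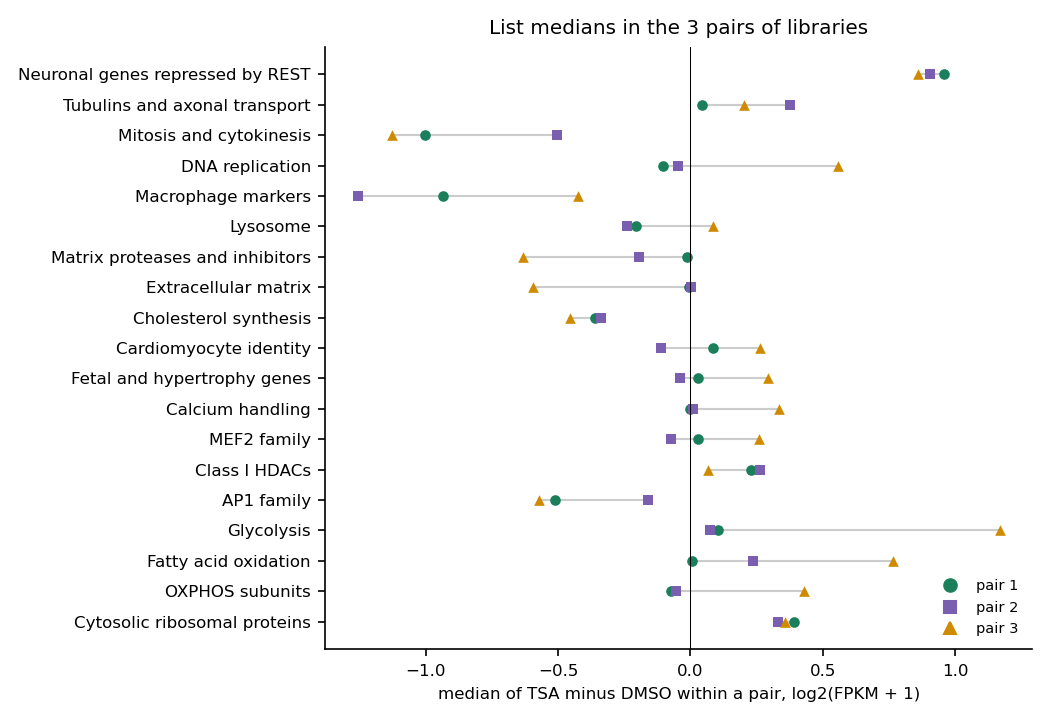
Median TSA minus DMSO difference in log2(FPKM + 1) of 19 gene lists within each pair, with 1 marker per pair and a grey line over their range. The neuronal, cholesterol and ribosomal lists have close medians in the 3 pairs, the mitosis list is below 0 in each, and glycolysis runs from 0.07 to 1.17 and DNA replication from -0.10 to 0.56.

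None of the 10 AP1 factors tested, which respond to stress and growth signals, was called, and 2 passed the adjusted p. All 10 differences were negative, with a median of -0.33 (-0.51, -0.16 and -0.57). Jund differed by -0.80 and Atf3 by -0.71 (limma adjusted p = 0.0398 each), Jun by -0.70 (0.137) and Junb by -0.19. Immediate early genes had a median of -0.35 over 16 tested with none called (none on adjusted p alone). Among 18 interferon genes tested Bst2 rose. Bst2 (chr16:19938784-19942353, minus strand), the antiviral surface protein tetherin, went from 4.72, 3.17 and 1.61 FPKM to 20.05, 18.3 and 15.6 (2.25, limma adjusted p = 0.0222), whereas the list's median was 0.18. Ifi27, a further interferon gene, differed by 0.78 (limma adjusted p = 0.0267). Il1rn was the one call among 15 chemokine and acute phase genes tested. Among 19 oxidative stress and metallothionein genes tested, Gpx3 and Mt3 rose. Mt3, the metallothionein of brain, rose by 1.53 from 0.141 to 0.270 FPKM to 2.39 to 2.50. With every DMSO library under 1 FPKM, Mt3 was tested only through its TSA libraries. The remaining 35 lists held no called gene. For the 25 of them with at least 10 genes tested, medians ranged from -0.35 to 0.44. In the IGF axis, the growth factor Igf2 differed by 0.95 (limma adjusted p = 0.0275) and its binding protein Igfbp6 by -0.96 (0.0254), both just short of the fold limit. Hand2, a transcription factor of the developing right ventricle, differed by 0.52 (limma adjusted p = 0.0385).

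The mouse libraries of the series allowed a look at how genes that move with TSA behave around birth. Mouse cardiomyocyte RNA-seq at P1 and P7 was compared with E18.5 (2 libraries each), and 10522 genes matched by symbol. Of these, 1.46% rose with TSA in rat and 0.523% fell. Among 492 genes lower in mouse at P1 than at E18.5, 28 rose with TSA, or 5.69% (95% Wilson interval 3.97 to 8.10), and 5 fell. Among 1144 genes higher at P1, 22 rose (1.92%) and 12 fell. At P7 the shares that rose were 3.30% of 1152 lower genes and 2.19% of 1736 higher genes, and the shares that fell were 0.608% (7 genes) and 1.21% (21 genes). With a mouse log2 fold change above 2 in size, 12 of 89 genes lower at P1 rose (13.5%), and 6 of 204 higher ones (2.94%). These counts include genes that passed the filter through the TSA libraries alone, as 88 of all 259 rises did. The part of such genes in the shares was not tested. Species, culture and measurement differ between these data, genes are not independent replicates, and no test of the difference was made.

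Single genes showed both patterns. The list of genes lower in mouse at both ages that rose with TSA had 23 members, Cox6b2, Dlk1, Sez6l2, Mt3 and Cldn5 among them. Sez6l2, Mt3 and Cldn5 had every DMSO library under 1 FPKM, so they were tested only through their TSA libraries. Cox6b2 differed by -2.22 at P1 and -2.63 at P7 in mouse, against its rise of 3.13 with TSA. Dlk1, a Notch ligand relative of fetal tissue, differed by -2.38 and -2.66 in mouse and rose by 1.86. Myl7 and S100a1 were lower at P7, by -2.31 and -2.66. Thy1, Tubb4a and Fbxo2 were instead higher at P7 in mouse, by 2.58, 2.94 and 1.59. Other genes higher at both ages also rose with TSA: Acot7, Akr1c13, Bst2, Ccl6, Efemp1, Ephx1, Fez1, Ggt7, Kif1a, Loxl4, Mogat2, Rtn1 and Thy1. Cenpa was lower at both ages and fell with TSA. The genes named here are thus no sign of a general reversal. In the opposite direction, 11 genes higher at both ages fell with TSA: Clec7a, Ctsk, Ctss, Gpnmb, Hvcn1, Il1rl2, Itgam, Lgals3, Mmp12, Scd2 and Slco4a1. Most of these 11 are genes of macrophages, and Mmp12 differed by 3.22 and 5.31 in mouse. Eln was lower at P1 in mouse (-3.64) and also fell with TSA.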

How the data were processed

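The authors aligned paired 150-base poly-A reads with HISAT2 (2.1.0) and assembled levels with StringTie (1.3.5 per the labels, 1.3.4d per the file headers) on rn6 (Rnor_6.0, Ensembl 103), and deposited FPKM and TPM per transcript. Strand use is not given in the sources used here, so overlapping and antisense genes are uncertain, as are the near-identical RT1 class I genes. Here the deposited FPKM values were summed per gene. Genes at FPKM 1 or more in at least 3 of the 6 libraries were tested with limma (3.58.1, R 4.3.3; trend, two-sided) on log2(FPKM + 1), with replicate number and treatment as terms and Benjamini-Hochberg adjustment. A call needs a change of more than 1 on the log2 scale with an adjusted p below 0.05. TPM, which the authors also deposited, served as an alternative. The comparison was defined in advance with the replicate number as pair. Same-numbered libraries deviated together from their group means (correlations of 0.224, 0.194 and 0.346). Unlike numbers 1 and 2 also did so, at 0.167 (DMSO 2 with TSA 1) and 0.09 (DMSO 1 with TSA 2). The values thus set replicate 3 apart but hardly tell pairs 1 and 2 apart. Without the replicate block, 290 genes (247 higher, 43 lower) were called. Depth, estimated from coverage and FPKM and not counted, was 28.2 to 38.5 M aligned reads. The analysis code was tested on simulated data. The genes with a symbol named are the 10 largest rises and falls, key list members and genes silent under DMSO. Up to 5 with the largest change each way among called genes averaging 100 FPKM or more are also named. The 10 largest rises and falls had to move the same way in all pairs, with groups that did not overlap. Any other gene was chosen after its values were seen, and members and lists were chosen with earlier results of these data known. Intervals cover counting error only. Promoter motifs were not analysed here, and some genes are not reported here.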

Additional observations from a re-analysis of the deposited data

How the results depend on the processing

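Of 48 called genes that the naming rule selected, all kept their direction under the 11 alternatives. Called genes moved the same way in every pair, so leaving out a pair or changing the pseudocount, filter or block could not reverse them. The kept direction is therefore not read as a result. The call was kept in 340 combinations of gene and alternative and lost in 173. The 339 calls (259 higher, 80 lower, 76.4% higher) became 79 (54, 25, 68.4%) with a pseudocount of 5, 136 (91, 45, 66.9%) with a mean of at least 5 FPKM, 535 (391, 144) with limma-voom on estimated reads, and 0 (0 and 0) without a filter, where 21275 genes were tested. TPM gave 125 lower (70.4% higher), and the fit without replicate block gave 43 lower (85.2%). Leaving out 1 pair gave 0 to 551 calls, 0 to 369 higher and 0 to 182 lower (67.0 to 88.9% higher), and 313 of the 551 without pair 3 were among the 339. A mouse threshold of 2 gave 13.5% in place of 5.69% for genes lower at P1 and 2.94% in place of 1.92% for genes higher. The causes were not tested. Signs of uncalled genes turned in TPM for Pcna (-0.031) and Rest (-0.052), with size factors for Rest (-0.019) and with limma-voom for Mef2c (-0.028). They also turned with 1 pair left out, where values ran from -0.16 to 0.26 for Adgre1, -0.22 to 0.34 for C1qa, -0.39 to 1.14 for Hk2, -0.017 to 0.18 for Mef2c, -0.14 to 0.038 for Mef2d, -0.21 to 0.18 for Pcna and -0.10 to 0.13 for Rest. Of 52 list medians, 34 kept their sign throughout. The planned promoter motif comparison was not run. Small changes of genes near 0 FPKM are limited by depth.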

Other observations

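The following genes were chosen after their values were seen. A run of rises lay on rat chromosome 6, where Dlk1 (chr6:133552821-133583751, plus strand) rose by 1.86, from 4.48, 2.81 and 1.52 FPKM to 14.3, 14.8 and 9.37. Downstream on the same strand, the clone-named gene AABR07065531.26 (chr6:133667975-133676907) rose by 2.15 and the miRNA hairpin gene Mir770 by 2.19, from 1.49, 2.89 and 1.07 FPKM to 14.2, 15.9 and 6.52. The hairpin is 94 bases long, shorter than a read, so the value for Mir770 depends on how reads of longer RNA were assigned. Dlk1 belongs to an imprinted domain, as do Igf2 and Cdkn1c, whose differences of 0.95 and 1.06 were not called.

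Called genes were sometimes neighbours. Within 50000 bases there were 23 pairs of called genes, 18 of them moving the same way, and 25 of the genes that rose (9.65%) had a second such gene within that distance, against 598 of all tested genes (4.39%). Epor, the erythropoietin receptor, rose by 1.32 between its neighbours Plppr2 (1.03) and Rgl3 (1.18) on chromosome 8. The classical class I genes RT1-CE1, RT1-CE5 and RT1-CE7 rose by 1.73, 1.57 and 1.28, but these near-identical, overlapping gene models may share reads.

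Hif3a, an inhibitor of hypoxia signaling, rose by 1.71, from 1.12, 1.52 and 0.309 FPKM to 4.99, 5.90 and 4.93, and Epas1, the HIF-2α factor, by 1.01, from 13.8, 11.1 and 8.91 to 29.0, 27.6 and 15.8. The opioid precursor Penk rose by 1.40, from 16.1, 16.0 and 20.5 FPKM to 49.5, 53.5 and 40.9.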
